A study of Rattus norvegicus with 15 samples.

Results

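Cultured rat spermatogonial stem cells were sampled 4 h and 2 h after GDNF was given back to cultures that had been without it for 18 h, and the comparison of the later with the earlier time rests on 6 of the 15 arrays of the series. The 6 arrays were chosen by their sample titles, 3 for each time, and each came from a culture of its own. The other 9 arrays hold 3 cultures each of a control kept in GDNF, of the 18 h withdrawal, and of 8 h of return. Before treatment every culture had spent 1 month in GDNF without serum; the labels used here name no strain, donor age or feeder layer. The 4 h cultures had therefore been without GDNF for 18 h and then with it for 4 h, and the 2 h cultures had been without it for 18 h and then with it for 2 h.

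GDNF, glial cell line-derived neurotrophic factor, is made by Sertoli cells of the testis and keeps spermatogonial stem cells dividing as stem cells. It binds a GFRA co-receptor, which brings in the receptor tyrosine kinase RET, and RET then drives the ERK, PI3K-AKT and SRC family kinase pathways. A growth factor given to a deprived cell first switches on immediate early genes such as Fos and Egr1, which need no new protein and are soon shut off again. Their products are transcription factors, and genes that need those factors, the delayed or secondary response, follow later.

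Promoters of 5 genes are shown: S100a3 had the largest rise at 4 h and Egr2 the largest fall, Plaur was a large rise with a motif match, and Fosl1 and Egr1 are immediate early genes with smaller changes, Fosl1 higher and Egr1 lower. The rank of S100a3 rests on 2 h intensities under 16. With such values set to 16 it rose 3.44-fold, and Tcf7l2, at 6.66-fold, led the 15 largest rises. Myh2 and Stx11, next in size to S100a3 and Egr2, are not printed. They held none of the motifs searched, and neither did S100a3 or Fosl1. Mafk, a called immediate early gene with an EGR motif at -84 relative to its start, is not printed either. Each is the 250 bases before the gene's start in the RefSeq promoter table of build GRCr8, 5′ to 3′ on the gene's own strand: S100a3 at chr2:178384263-178384512, plus strand, Plaur at chr1:89181113-89181362, plus strand, Fosl1 at chr1:212183635-212183884, plus strand, Egr2 at chr20:21054442-21054691, minus strand, and Egr1 at chr18:26736828-26737077, plus strand. Capitals mark the AP-1 motif of Plaur and the CArG boxes of Egr2 and Egr1, the element that serum response factor binds.
S100a3: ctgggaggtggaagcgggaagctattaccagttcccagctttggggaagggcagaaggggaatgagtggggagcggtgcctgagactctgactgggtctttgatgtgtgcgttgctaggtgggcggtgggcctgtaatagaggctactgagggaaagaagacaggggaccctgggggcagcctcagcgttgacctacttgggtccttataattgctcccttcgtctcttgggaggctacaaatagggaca
Plaur: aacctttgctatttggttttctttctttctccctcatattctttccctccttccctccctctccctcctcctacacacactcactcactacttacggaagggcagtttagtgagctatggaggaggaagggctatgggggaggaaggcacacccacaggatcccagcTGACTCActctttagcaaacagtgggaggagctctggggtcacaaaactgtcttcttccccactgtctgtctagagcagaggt
Fosl1: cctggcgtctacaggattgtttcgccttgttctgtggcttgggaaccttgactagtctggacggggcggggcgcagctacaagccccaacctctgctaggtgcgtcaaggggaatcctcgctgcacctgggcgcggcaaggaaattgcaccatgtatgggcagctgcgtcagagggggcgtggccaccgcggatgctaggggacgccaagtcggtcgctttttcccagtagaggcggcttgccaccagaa
Egr2: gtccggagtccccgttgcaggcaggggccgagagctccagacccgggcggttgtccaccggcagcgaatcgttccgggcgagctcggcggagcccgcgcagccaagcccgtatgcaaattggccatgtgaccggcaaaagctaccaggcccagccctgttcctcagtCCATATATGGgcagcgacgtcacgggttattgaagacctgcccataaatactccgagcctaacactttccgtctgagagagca
Egr1: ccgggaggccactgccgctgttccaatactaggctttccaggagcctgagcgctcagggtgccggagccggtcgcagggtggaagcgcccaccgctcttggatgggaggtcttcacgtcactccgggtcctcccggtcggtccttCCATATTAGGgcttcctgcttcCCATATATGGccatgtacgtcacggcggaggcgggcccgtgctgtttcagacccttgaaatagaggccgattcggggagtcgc

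Both strands were searched for 4 motifs from 250 bases before to 50 after each start: AP-1 (TGANTCA), CRE (TGACGTCA), EGR (GCGNGGGCG) and the CArG box by name; no CRE match is also an AP-1 match. The AP-1 match of Plaur began at -83 relative to the start, the CArG box of Egr2 at -83, and those of Egr1 at -105 and -83; Plaur was added to the promoters shown after its values and its match had been seen. A CArG box stood in 4 of the 13 immediate early transcription factor promoters with an entry (30.8%), Egr1, Egr2, Srf and Klf6, against 1.35% of the 7648 promoters of tested genes and 1.64% of all 27457 promoters. The EGR motif too was in 4 of these 13 (30.8%), those of Jund, Maff, Mafk and Srf, the CRE in 2 (15.4%), those of Jund and Maff, and AP-1 in 0. The EGR motif was in 95 of 631 promoters of genes higher at 4 h (15.1%) and in 54 of 550 of genes lower at 4 h (9.82%), against 10.9% of tested genes and 5.29% of all promoters. The AP-1 motif was in 6.34% of promoters of genes higher at 4 h and in 4.73% of those lower, against 4.45% of tested genes and 7.33% of all promoters, and the CRE in 3.33% and 4.36%, against 3.65% and 1.91%. Of the 15 largest rises 13 had an entry, and 4 of these held the EGR motif (Tcf7l2, Hivep2, Pip4k2a and Fblim1). These are letter matches with no test.

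Each value is a linear probe set intensity, tested as log2 with limma across all 5 groups, with Benjamini-Hochberg adjustment over the 15856 probe sets of at least 16 (log2 of 4) on at least 3 of the 15 arrays. At 4 h 2172 probe sets differed from 2 h at an adjusted p under 0.05, which is 13.7% of those tested: 1198 were higher (7.56%) and 974 lower (6.14%). Most of these changes were small. The middle of the called probe sets had a log2 change of 0.33 in size, with quartiles at 0.24 and 0.49, and 68 rose and 16 fell at least 2-fold. Taking each of the 9002 named genes with its brightest tested probe set, 767 genes (8.52%) were higher and 650 (7.22%) lower at 4 h, and the median log2 change over all of them was 0.0007. The 3 arrays at 4 h and the 3 at 2 h did not overlap for 5218 probe sets (32.9%). The count of lower probe sets fell to 578 without 2 h replicate 1 and to 639 without 2 h replicate 3, and 29 rather than 16 fell at least 2-fold without 4 h replicate 2.

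The 15 genes with the largest rises, among called genes whose groups did not overlap and whose higher mean was at least 16, were 2.91- to 9.42-fold higher at 4 h (adjusted p from 1.99e-08 to 0.0203). S100a3, an S100 calcium-binding protein gene, had intensities of 57.0, 61.3 and 47.8 at 4 h, against 6.52, 6.10 and 5.02 at 2 h. All 3 arrays at 2 h lay under 16, and with values under 16 set to 16 the rise was 3.44-fold (adjusted p = 2.67e-06). Myh2, a fast skeletal myosin heavy chain gene, had 68.3, 105 and 71.5 at 4 h, against 11, 8.09 and 13.8 at 2 h, all under 16, and rose 5.0-fold with values under 16 set to 16. Tcf7l2, a transcription factor of the Wnt pathway, had 239, 276 and 224 at 4 h, against 40.4, 41.6 and 29.8 at 2 h. It was thus 6.66-fold higher, and the lowest array at 4 h stood far above the highest at 2 h. Iqsec3, an activator of ARF GTPases, reached 145, 119.6 and 137 at 4 h, against 27.5, 20.5 and 27.1 at 2 h. Hivep2, a zinc-finger transcription factor gene, had 263, 203 and 214 at 4 h, against 67.8, 60.8 and 55.0 at 2 h, a 3.69-fold rise.

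**Figure D1:**
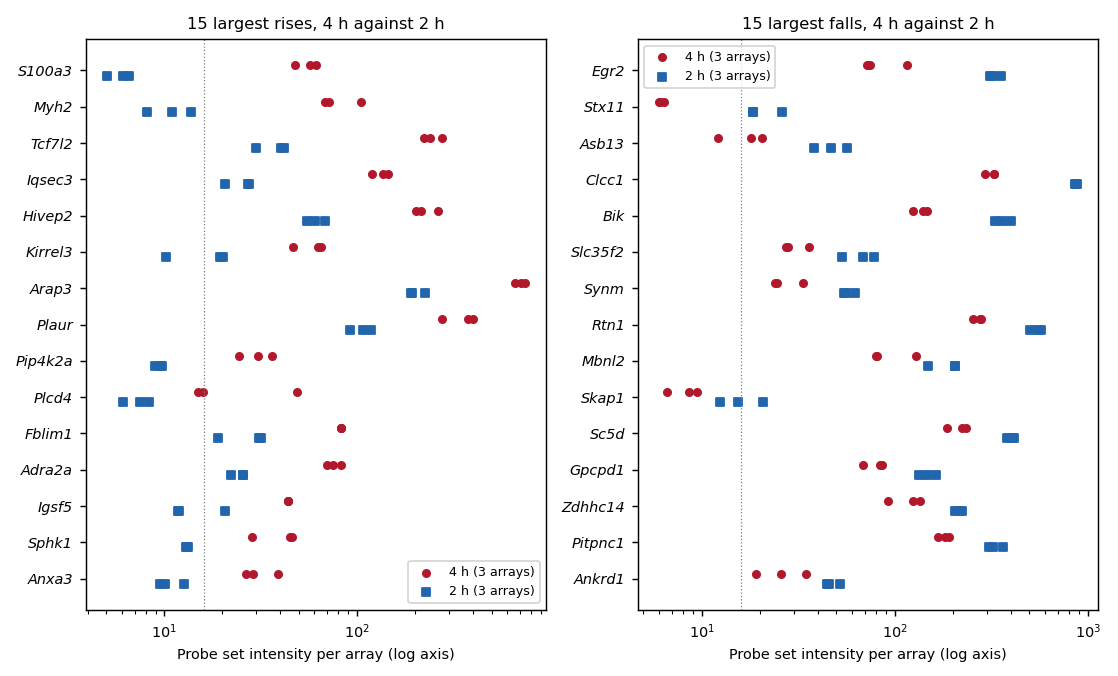
Probe set intensity on each array (log axis) of the 15 genes with the largest rises (left) and the 15 with the largest falls (right); red circles are the 3 arrays at 4 h and blue squares the 3 at 2 h, and the dotted line is at 16. S100a3 sits between 47.8 and 61.3 at 4 h, above 5.02 to 6.52 at 2 h, and Egr2 between 72.3 and 116 at 4 h, below 313 to 358 at 2 h.

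Arap3, which turns off RHOA and ARF GTPases and binds a product of PI3K, had 744, 712 and 662 at 4 h, against 225, 193 and 192 at 2 h (3.48-fold, log2 change 1.80 ± 0.10 SE, adjusted p = 1.99e-08). The 4 h mean of 706 ± 41.7 lay near the control mean of 774 ± 118, and the 2 h mean of 203 ± 18.9 near the withdrawal mean of 189 ± 12.1 (SD, 3 arrays each). Plaur, the urokinase receptor gene, had 278, 398 and 375 at 4 h, against 91.9, 108 and 118 at 2 h, a 3.28-fold rise. Adra2a, an adrenergic receptor gene, had 69.6, 75.2 and 83.0 at 4 h, against 22.2, 25.6 and 25.5 at 2 h. Sphk1, the sphingosine kinase gene, had 28.3, 44.7 and 45.7 at 4 h, against 13.0, 13.1 and 13.2 at 2 h, a 2.42-fold rise with values under 16 set to 16. The cell adhesion genes Kirrel3, Igsf5 and Fblim1 rose 3.63-, 3.08- and 3.12-fold. With values under 16 set to 16 Kirrel3 rose 3.12-fold and Igsf5 2.52-fold. The annexin gene Anxa3 and the lipid kinase gene Pip4k2a rose 2.91- and 3.18-fold, or 1.94- and 1.87-fold with values under 16 set to 16. Plcd4, a phospholipase C gene, rose 3.14-fold on the strength of 1 array: it had 15.9, 49.0 and 14.9 at 4 h, against 7.44, 8.29 and 6.08 at 2 h. Its call was lost without 4 h replicate 2 (2.13-fold, adjusted p = 0.0779), without 2 h replicate 1 or 3 (0.0548 and 0.074), and with values under 16 set to 16 (1.45-fold, 0.426).

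The 15 largest falls were smaller, from 1.83- to 3.85-fold (adjusted p from 1.19e-09 to 0.0275), and the immediate early gene Egr2 led them. Egr2, a zinc-finger transcription factor of the EGR family, had 74.8, 72.3 and 116 at 4 h, against 358, 320.3 and 313 at 2 h (log2 change -1.94 ± 0.23 SE, adjusted p = 5.12e-05). Even so, all 3 arrays at 4 h stayed above the means of 16.2 in the control and 13.2 after withdrawal. Clcc1, a chloride channel gene of the endoplasmic reticulum, had 326, 292 and 328 at 4 h, against 882, 868 and 864 at 2 h, a 2.77-fold fall. A further Clcc1 probe set was 1.86-fold lower, also past the threshold. Bik, a BCL2-family gene whose protein promotes cell death, had 147, 125 and 140.5 at 4 h, against 399, 361 and 331 at 2 h. Asb13, a member of the SOCS-box family, had 18.1, 20.5 and 12.1 at 4 h, against 56.5, 47.0 and 38.1 at 2 h, a 2.82-fold fall. With values under 16 set to 16 that fall was 2.57-fold. Sc5d, a desaturase late in cholesterol synthesis, had 234, 186 and 224 at 4 h, against 406, 383 and 417 at 2 h, and both of its other tested probe sets fell too.

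Rtn1, a reticulon gene, had 256, 279 and 281 at 4 h, against 570.5, 552 and 504 at 2 h. The transporter gene Slc35f2 fell 2.18-fold, the intermediate filament gene Synm 2.13-fold, Gpcpd1 1.88-fold, the palmitoyltransferase gene Zdhhc14 1.85-fold and the lipid transfer gene Pitpnc1 1.84-fold. Stx11, a syntaxin of vesicle fusion, had 6.0, 6.35 and 6.09 at 4 h, against 18.5, 18.4 and 26.2 at 2 h, so its 3.38-fold fall became 1.3-fold with values under 16 set to 16 (adjusted p = 0.0284). Stx11 met the intensity filter only through the 3 arrays at 2 h, so the arrays that let it in also set its fall. Its means were 6.34 in the control, 6.44 after withdrawal and 5.88 at 8 h. Skap1, an adaptor gene, fell 1.95-fold, but its values straddle 16, and with that floor its change was 1.09-fold (adjusted p = 0.48). Mbnl2, a splicing factor gene, fell 1.96-fold, and its call was lost without 4 h replicate 1 or 3 (adjusted p = 0.0703 and 0.0658) and without 2 h replicate 2 or 3 (0.0648 and 0.0643). Its other tested probe set, at a log2 change of -0.24, was not past the threshold (0.691). Ankrd1, a nuclear ankyrin-repeat gene, fell 1.83-fold, and its call was lost without 4 h replicate 1 or 2 (0.123 and 0.0607) and without 2 h replicate 1, 2 or 3 (0.0588, 0.0637 and 0.0923).

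Among the immediate early transcription factors 17 of the 25 listed genes were tested, and the list split: 4 were lower at 4 h, 3 higher and 10 not past the threshold, with a median log2 change of -0.12 against 0.0007 over all named genes. The share of named genes called was 8.52% higher and 7.22% lower, so the list held more calls both ways than these. Fosl2, Egr3, Nr4a1, Nr4a2, Nr4a3, Atf3, Myc and Nfil3 did not reach the intensity filter. Besides Egr2, its relative Egr1 was lower, with 5299, 4753 and 4830 at 4 h, against 5982, 6009 and 6363 at 2 h (1.23-fold, adjusted p = 0.00146). Mafk, a small MAF factor, had 292, 272 and 314 at 4 h, against 426, 423 and 442 at 2 h. Srf, the serum response factor that binds CArG boxes, had 824, 664 and 784 at 4 h, against 934, 973 and 1012 at 2 h. In all 4 of these called genes the groups did not overlap, against 32.9% of all tested probe sets. Nor did they overlap in Fos and Klf4, which were not called.

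The AP-1 genes parted. Fosl1, which encodes the FOS-family protein FRA1, had 1176, 980.1 and 1116 at 4 h, against 695, 693 and 712 at 2 h, a rise of 0.64 ± 0.11 on the log2 scale (SE, adjusted p = 0.00177). Fos had 2855, 2055 and 1529 at 4 h, against 4194, 3394 and 3117 at 2 h, a log2 change of -0.77 ± 0.33 (SE). Fosb had 636, 254 and 282 at 4 h, against 782, 632 and 624 at 2 h, a log2 change of -0.92 ± 0.51 (SE). Neither Fos nor Fosb passed the threshold (adjusted p = 0.143 and 0.256), and in both the first 4 h replicate was the highest at that time. Junb, Jun and Jund had log2 changes of -0.21, 0.06 and -0.12 and did not pass it either.

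The other rises on the list were the Krüppel-like factor gene Klf2 and the circadian repressor gene Bhlhe40. Klf2 had 1282, 1082 and 1082 at 4 h, against 738, 719 and 657 at 2 h, which brought it to 1149 ± 116 at 4 h, beside 1269 ± 113 in the control and 957 ± 87.1 after withdrawal (SD, 3 arrays each). A second Klf2 probe set rose 1.9-fold (adjusted p = 0.0095), while the dimmest one, at a log2 change of 0.03, did not pass. Bhlhe40 had 122, 149 and 148 at 4 h, against 86.6, 97.0 and 98.1 at 2 h (1.48-fold, adjusted p = 0.0199), and its call was lost without 4 h replicate 2 or 3 (0.0633 and 0.0682) and without 2 h replicate 1 (0.0787). Klf4, Klf6, Klf10, Maff and Egr4 had log2 changes from -0.25 to 0.17, none past the threshold. Of 23 other immediate early genes 4 were lower and 2 higher, with a median of -0.07. Over all named genes 7.22% were lower and 8.52% higher, so the higher count is near that share. Zfp36, which speeds the decay of AU-rich mRNAs, had 1209, 1125 and 1121 at 4 h, against 1541, 1598 and 1615 at 2 h. Nfkbia, the inhibitor of NF-kappaB, and Plk2, a polo-like kinase gene, were 1.4- and 1.45-fold lower, Btg1 was the fourth, and Gadd45b (1.29-fold) and Rgs2 were higher.

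**Figure D2:**
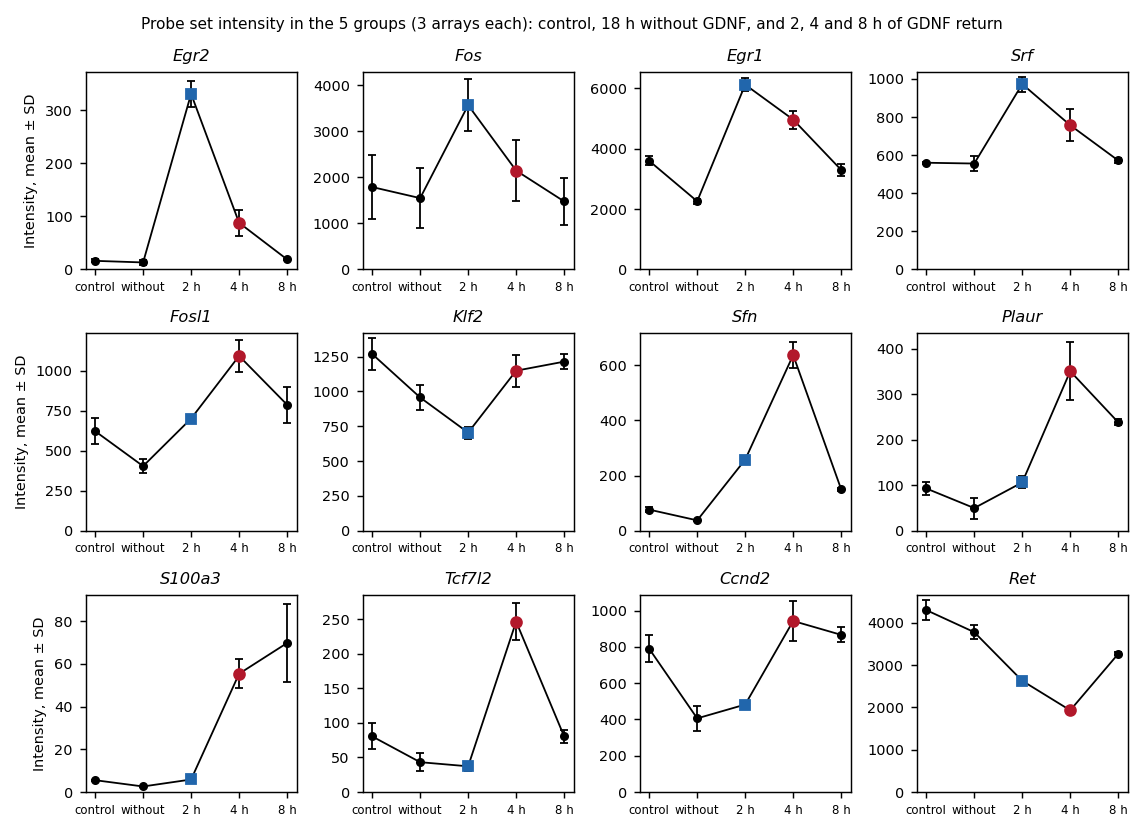
Probe set intensity (mean ± SD of 3 arrays, linear axes from 0) of 12 genes in the control, after 18 h without GDNF, and at 2, 4 and 8 h of return; the blue square marks 2 h and the red circle 4 h. Egr2 stands at 87.8 at 4 h, below 330.4 at 2 h, whereas Sfn stands at 636 at 4 h, above 258 at 2 h and above its level in every other group.

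Genes of the delayed growth factor response, many of them AP-1 targets, leaned the other way: of 19 tested of 33 listed, 9 were higher at 4 h and 0 lower, against 8.52% higher and 7.22% lower over all named genes, with a median log2 change of 0.36 against 0.0007. Mesenchymal markers had 16 of 16 tested changes above 0, a median of 0.30 and 1 call. With their mean as a covariate 10 of the delayed response list were higher and 2 lower, while calls over all probe sets went from 2172 to 2404. That mean was itself 8.145 at 4 h and 7.857 at 2 h on the log2 scale. The part of these markers in the list's result therefore cannot be told apart from the time of return. With 1 array left out in turn 8 to 10 were higher, and 1 was lower without 4 h replicate 3 or 2 h replicate 1. Sfn, which encodes 14-3-3 sigma, had 623, 688 and 597 at 4 h, against 256, 257 and 259.5 at 2 h, a 2.47-fold rise. Its mean was 76.5 ± 8.5 in the control, 37.6 ± 2.04 after withdrawal and 150.1 ± 5.74 at 8 h, so 4 h was its highest group (SD, 3 arrays each). Hmox1, the heme oxygenase gene, had 914, 901 and 978 at 4 h, against 520, 518 and 550 at 2 h (1.76-fold, adjusted p = 1.16e-07). Timp1, a metalloproteinase inhibitor gene, had 1016, 1194 and 1247 at 4 h, against 771, 764 and 808 at 2 h. The metalloproteinase gene Mmp9 had 24.8, 34.4 and 29.4 at 4 h, against 12.0, 16.1 and 15.6 at 2 h. Plaur and Sphk1, given above, and Hmga1, Tnfrsf12a and Lgals3 made up the 9. The EGF-family ligand gene Hbegf, on this list too, had 16.1, 20.9 and 34.7 at 4 h, against 32.4, 38.5 and 40.1 at 2 h, and was not called (adjusted p = 0.123). Ccnd1 and Odc1 had log2 changes of 0.05 and -0.03.

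ERK feedback genes, which ERK switches on and many of whose products restrain it, were higher in 4 of 11 tested members and lower in 2, with a median log2 change of 0.27. Over all named genes 8.52% were higher and 7.22% lower. Dusp6, a phosphatase of ERK, had 5273, 5225 and 5057 at 4 h, against 4273, 4224 and 4402 at 2 h. Dusp6 rose in a second probe set (log2 change 0.28), and one more, at 0.29, missed the threshold (adjusted p = 0.158). Epha2, an ephrin receptor gene, had 396, 415 and 422 at 4 h, against 289, 317 and 290.4 at 2 h. Spry2, a Sprouty inhibitor, went the other way, with 937, 1016 and 953 at 4 h, against 1150, 1211 and 1297 at 2 h. The phosphatase gene Dusp5 had 238, 223 and 257 at 4 h, against 316, 342 and 362 at 2 h, and its call was lost without 4 h replicate 1 or 2 (adjusted p = 0.0667 and 0.0779) and without 2 h replicate 2 or 3 (0.071 and 0.0903). Spry1, Spry4, Dusp7, Errfi1 and Etv1 had log2 changes from 0.15 to 0.39, none past the threshold, though Spry4 passed without 4 h replicate 2 (0.0183).

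Of 10 tested genes that GDNF is known to control in mouse spermatogonia, 6 were higher at 4 h and 1, Egr2, was lower, with a median log2 change of 0.44. The shares over all named genes were 8.52% higher and 7.22% lower. Ccnd2, the D-type cyclin gene, had 816, 1015 and 998 at 4 h, against 497, 469 and 481 at 2 h (1.95-fold, adjusted p = 4.05e-05). It stood at 789.8 ± 74.6 in the control and 406 ± 68.6 after withdrawal, so all 3 arrays at 4 h were above the control mean (SD, 3 arrays each). Bcl6b, a repressor gene needed for stem cell upkeep in the mouse, had 746, 607 and 653 at 4 h, against 361, 432 and 407 at 2 h, and its 3 other tested probe sets rose as well. All 6 arrays stood between the withdrawal mean of 164 and the control mean of 1588. Etv5, an ETS factor of stem cell self-renewal in the mouse, had 829, 719 and 714 at 4 h, against 458, 455 and 506 at 2 h. Its relative Etv4 was 1.25-fold higher, a call lost without 4 h replicate 1 or 3 (adjusted p = 0.0616 and 0.0518) and without 2 h replicate 2 (0.0502), while its other probe set rose 1.31-fold (0.00189). Pou3f1, a POU-domain factor, had 264, 339 and 269 at 4 h, against 197, 206 and 182 at 2 h. The chemokine receptor gene Cxcr4 was 1.54-fold higher, but 2 further probe sets measured 0.72 and 0.71 on the log2 scale and missed the threshold (0.0941 and 0.0579). Its mean was highest after withdrawal, at 109, beside 84.4 in the control, 51.6 at 2 h, 79.9 at 4 h and 83.2 at 8 h. Id4 and Mycn had log2 changes of -0.12 and 0.05.

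Of the receptor complex itself, Ret fell further: it had 1974, 1892 and 1930 at 4 h, against 2686, 2559 and 2645 at 2 h (log2 change -0.44 ± 0.04 SE, adjusted p = 8.39e-06), and 2 further Ret probe sets fell 1.41- and 1.48-fold. Ret was lower at 4 h than in any other group, with means of 4301 ± 235 in the control, 3779 ± 172 after withdrawal and 3266 ± 37.2 at 8 h (SD, 3 arrays each). The co-receptor gene of GDNF, Gfra1, did not reach the intensity filter. Gfra2, the neurturin co-receptor gene, had 129.8, 156 and 142 at 4 h, against 84.3, 82.0 and 91.0 at 2 h. Gfra3, the artemin co-receptor gene, had 27.0, 33.2 and 32.4 at 4 h, against 13.6, 13.2 and 13.2 at 2 h, a 2.31-fold rise, or 1.92-fold with values under 16 set to 16. The adaptor gene Dok5 rose 1.93-fold, with 2 h values all under 16, and with that floor its change was 1.18-fold (adjusted p = 0.0749). The adaptor gene Shc1 and the kinase gene Src were also higher. Of this list 5 of 19 tested members were higher and 1 lower, with a median of 0.00, against 8.52% higher and 7.22% lower over all named genes. The higher count was 2 with a filter at log2 of 6, so it rests in part on dim probe sets. Among the 13 not past the threshold were Grb2, Gab1, Frs2, Ptpn11, Plcg1 and Akt1, with log2 changes between -0.09 and 0.19.

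**Figure D3:**
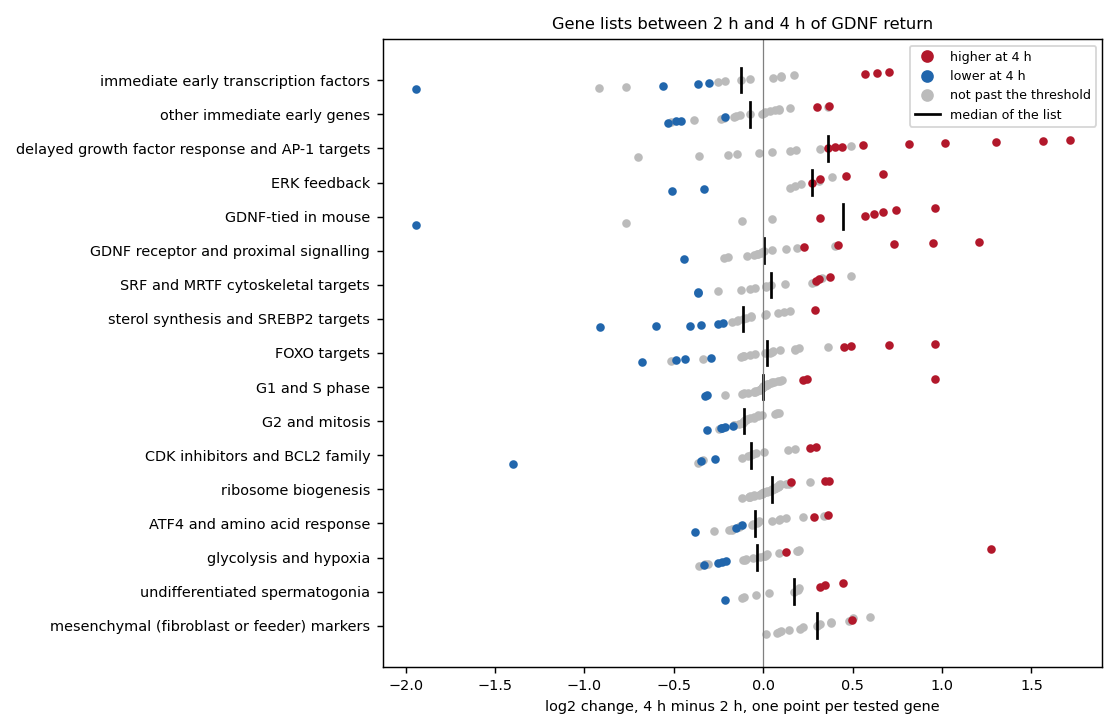
log2 change at 4 h minus 2 h of each tested gene in 17 of the lists, 1 point a gene; red points were called higher at 4 h, blue points lower, grey points did not pass the threshold, and the black bar is the list's median. The delayed response list has its median at 0.36 and no blue point, while the immediate early transcription factors spread from -1.94 to 0.70.

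Genes of undifferentiated spermatogonia were higher in 3 of 11 tested members and lower in 1, with a median log2 change of 0.17. Over all named genes 8.52% were higher and 7.22% lower, so the lower count is near that share. Sall4, a zinc-finger factor of these cells, had 984, 862 and 916 at 4 h, against 685, 680 and 662 at 2 h. The surface adhesion gene Epcam had 10200, 9490 and 9924 at 4 h, against 7625, 7981 and 8147 at 2 h. The integrin gene Itgb1 rose 1.27-fold, with its other probe set at 0.39 on the log2 scale and not past the threshold (adjusted p = 0.0902). Sox3 was the lower one, 1.16-fold, and its call was lost with any 1 of the 6 arrays left out (adjusted p from 0.0502 to 0.151). Of 8 tested genes on a list of germ cell identity and differentiation 2 were lower and 0 higher. Kit, the receptor that marks differentiating spermatogonia, had 102, 101 and 114 at 4 h, against 152, 154 and 145 at 2 h. Dmrt1 was 1.18-fold lower, a call lost without 2 h replicate 3 (0.0512).

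Of 19 tested genes of cholesterol synthesis and its control 6 were lower and 1, Srebf2, higher, with a median log2 change of -0.12. The shares over all named genes were 7.22% lower and 8.52% higher. Idi1, which makes an isoprenoid building block, had 4104, 3607 and 3726 at 4 h, against 5818, 5841 and 5665 at 2 h (1.52-fold, adjusted p = 1.03e-06). The squalene epoxidase gene Sqle had 1807, 1570 and 1782 at 4 h, against 2295, 2261 and 2282 at 2 h. Msmo1, a sterol oxidase gene, was 1.27-fold lower, and Sc5d, Fdft1 and Hsd17b7 were the other 3. Without 4 h replicate 1 or any 1 of the 2 h replicates no sterol gene was higher, and 5 to 7 were lower with any 1 array left out.

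Genes on the list of targets of FOXO factors, which PI3K-AKT signalling holds down, split evenly, 4 of 24 higher and 4 lower, with a median of 0.02. The list was not divided into genes that FOXO raises and genes that it lowers. Over all named genes 8.52% were higher and 7.22% lower. Foxo3 itself had 279, 248 and 261 at 4 h, against 417, 473 and 374 at 2 h. Its mean was 215 ± 11.3 in the control and 630 ± 32.6 after withdrawal, so the 4 h level lay nearer the control (SD, 3 arrays each). Txnip, a brake on glucose uptake, had 1367, 1400 and 1500 at 4 h, against 1935, 1911 and 1922 at 2 h. Ddit4, an inhibitor of mTORC1, rose 1.37-fold, and Ccnd2 and Klf2 are members of this list as well. In the list of CDK inhibitors and the BCL2 family 3 of 15 were lower and 2 higher, with a median of -0.07: Bik and Bad, both promoters of cell death, fell 2.64- and 1.27-fold. Bcl2l2, a survival gene, was 1.23-fold higher, a call lost without 4 h replicate 2 or 3 (adjusted p = 0.107 and 0.0718) and without 2 h replicate 2 or 3 (0.124 and 0.0863). Neither higher call of that list held without 2 h replicate 2 or 3, where 0 were higher.

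Of 25 tested genes of G2 and mitosis 5 were lower and 0 higher, with 22 of 25 changes below 0 and a median of -0.11. The B-type cyclin gene Ccnb1 had 3283, 3430 and 3146 at 4 h, against 4197, 4052 and 4011 at 2 h, and its other probe set fell 1.17-fold. Ccnb2 had 3684, 3476 and 3574 at 4 h, against 4237, 4160 and 4227 at 2 h. Kif20a, a mitotic kinesin gene, was 1.17-fold lower. The count was 3 without 2 h replicate 1 and 7 without 4 h replicate 1. Of 32 genes of G1 and S phase 3 were higher and 2 lower, with a median of 0.00: Ccnd2, the origin licensing gene Cdt1 (1.17-fold) and Orc1 against Tyms and Pola1. Both counts are near the 8.52% higher and 7.22% lower of all named genes. Neither lower call held without 4 h replicate 3 or without 2 h replicate 1 or 3, where 0 were lower.

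Among metabolic and stress lists, Slc2a3, a glucose transporter gene, stood out by size: it had 337, 403 and 311 at 4 h, against 126, 159 and 151 at 2 h, a 2.41-fold rise (adjusted p = 1.67e-05). Of the 22 tested genes of the glycolysis and hypoxia list 2 were higher, counting this one, and 4 lower, among them the glycolytic enzyme gene Tpi1 (1.26-fold), and the lower count was 1 without 4 h replicate 1 or 2 h replicate 3. Over all named genes 8.52% were higher and 7.22% lower, so the main higher count of this list is near that share. This higher count was 1 without 4 h replicate 1 or 3 or 2 h replicate 2 or 3. The co-chaperone gene Bag3 had 315, 288 and 329.6 at 4 h, against 214, 198 and 192 at 2 h, the call among 14 heat shock genes. Pmepa1, an inhibitor of TGF-beta signalling, had 349, 378 and 379 at 4 h, against 226, 226 and 188 at 2 h. Atoh8, the other call among 13 genes of the BMP and TGF-beta response, lay under 16 at both times and gets no fold here. Without 2 h replicate 1 Atoh8 was not called. Hes6, of the Notch list, had 148, 191 and 175 at 4 h, against 248, 261 and 289.5 at 2 h. Of the SRF and MRTF cytoskeletal targets 3 of 17 were higher and 2 lower: the focal adhesion gene Zyx had 791, 706 and 746 at 4 h, against 528, 608 and 600.4 at 2 h, while the tropomyosin gene Tpm4 fell 1.29-fold, with its other probe set at -0.33 (0.102). For ribosome biogenesis 3 of 39 genes were higher and 0 lower, a count of 0 without 4 h replicate 1 or 2 h replicate 1 and of 5 without 4 h replicate 2. The main count is near the 8.52% of all named genes called higher, and it was 9 with the mesenchymal covariate, 6 with array weights and 5 with arrays centred. The amino acid response had 2 of 22 higher, near the 8.52% of all named genes, and 3 lower, with no higher call without 4 h replicate 1 or any 1 of the 2 h replicates and 1 lower call without 4 h replicate 1 or 2 h replicate 3.

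The labelled cell type was checked on 12 spermatogonia markers. Of these 7 were tested, with a summed intensity of 27130 ± 571 at 4 h and 25340 ± 1060 at 2 h (SD, 3 arrays each). The sums overlapped, with a lowest of 26525 at 4 h and a highest of 26549 at 2 h. Of the 7 markers 3 were called higher (Sall4, Epcam and Etv5) and 1 lower (Ret), against 8.52% and 7.22% of all named genes. The sum therefore holds genes that changed between the times. Epcam, Itga6 and Uchl1 led the sum. Gfra1 and Lin28a did not reach the filter, and Zbtb16, Ddx4 and Dazl were not analysed here. Mesenchymal markers were on the arrays too: 16 of 23 were tested, all 16 changes were above 0 with a median log2 change of 0.30, and 1, Twist1, was called higher. Their summed intensity ranged from 6100 to 8820 at 4 h and from 5520 to 6405 at 2 h, so the groups overlapped. The call of Twist1 (1.41-fold) was lost without 4 h replicate 1 or 2 (adjusted p = 0.065 and 0.0621) and without 2 h replicate 1 (0.0926), which leaves 0 of the list; 4 were called higher with array weights, and 5 with replicate 1 of control, withdrawal and 4 h left out together. With the mean of these markers as a covariate Bhlhe40, Dusp5, Bcl2l2, Sox3 and Twist1 lost their calls (adjusted p = 0.0518, 0.0658, 0.0658, 0.0869 and 0.0564), and Egr4 and Spry4 were called higher (0.0344 and 0.0464). The 30 genes of largest change were called with that covariate, Plaur at 2.46-fold rather than 3.28-fold. Fosb was at a log2 change of -0.29 rather than -0.92 and Fos at -0.33 rather than -0.77, neither called (adjusted p = 0.669 and 0.372). Fewer mesenchymal cells and less RNA per cell cannot be told apart on these arrays. Of 8 Sertoli cell genes tested 1 was higher, Wt1, with 36.2, 43.0 and 27.4 at 4 h, against 17.8, 20.8 and 19 at 2 h, while Gata4 and Amh did not reach the filter, and Sox9 and Fshr were not analysed here. This count was 0 with filters at log2 of 5 and 6. Both 1 of 8 Sertoli cell genes and 1 of 16 mesenchymal markers are near the 8.52% of all named genes called higher. The summed intensity of the 8 Sertoli cell genes was 3644 ± 112 at 4 h and 3846 ± 56.7 at 2 h (SD, 3 arrays each), lower at 4 h without overlap. Their mean log2 intensity did not fall, at 6.116 to 6.202 at 4 h and 6.123 to 6.148 at 2 h, which overlap. Acta2 was the tested gene of 14 Leydig and peritubular markers and Cd3e that of 18 immune and blood markers, with log2 changes of 0.02 and -0.05.

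Some control measures moved with the groups. For GAPDH the log2 signal of the 3′ control probe set minus that of the 5′ one, an RNA quality measure, lay between -0.175 and -0.123 at 4 h and between -0.273 and -0.252 at 2 h, without overlap. The 5S ribosomal RNA probe set had 1444 ± 165 at 4 h and 1682 ± 28.4 at 2 h (SD, 3 arrays each), and the hybridization spikes a mean log2 intensity of 10.47 ± 0.07 at 4 h and 10.24 ± 0.14 at 2 h, both without overlap. The hexokinase difference, 2.14 to 2.27 at 4 h and 2.12 to 2.32 at 2 h, overlapped. The part of these measures in the results was not tested. Pearson's r between arrays of the same time lay between 0.9948 and 0.9973 on the log2 scale.

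The genes called by a pair of comparisons whose group means use none of these 6 arrays were followed from 2 h to 4 h: withdrawal against control, with 1238 genes higher (13.8% of named genes) and 973 lower (10.8%), and 8 h of return against withdrawal, with 913 higher (10.1%) and 1734 lower (19.3%). Their calls are not independent of the 6 arrays, since the fit took its spread, filter and choice of probe set from all 15. Both comparisons also share the withdrawal arrays. How far this raises the shares below was not tested. Of the 913 genes higher at 8 h than after withdrawal, 387 (42.4%) were higher at 4 h than at 2 h and 20 (2.19%) lower, against 8.52% and 7.22% of all named genes. These 387 were 50.5% of the genes higher at 4 h. Of the 1734 genes lower at 8 h, 358 (20.6%) were lower at 4 h than at 2 h and 22 (1.27%) higher, and the 358 were 55.1% of the genes lower at 4 h. Among the 80 that were at least 2-fold higher at 8 h, 65 (81.2%) were higher at 4 h and 0 lower, and among the 25 at least 2-fold lower, 13 were lower and 0 higher. Of the 973 genes lower after withdrawal than in the control, 305 (31.3%) were higher at 4 h than at 2 h and 66 (6.78%) lower, and the 305 were 39.8% of the genes higher at 4 h. Of the 1238 genes higher after withdrawal, 208 (16.8%) were lower at 4 h and 50 (4.04%) higher, and the 208 were 32.0% of those lower at 4 h.

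Several of these counts moved with single arrays. Without 2 h replicate 1 the 358 became 222, and the 208 became 126, or 137 without 2 h replicate 3. The 50 became 29 without 4 h replicate 1, 2 h replicate 1 or 2 h replicate 2 and 30 without 2 h replicate 3, and the 66 became 43 without 2 h replicate 3. The 20 became 13 without 4 h replicate 1 or 3 or 2 h replicate 1 and 12 without 2 h replicate 3. The 22 became 11 without 4 h replicate 1, 14 without 2 h replicate 1 and 13 without 2 h replicate 2. With any 1 of the 6 arrays left out the 387 became 315 to 355 and the 305 became 256 to 273.

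**Figure D4:**
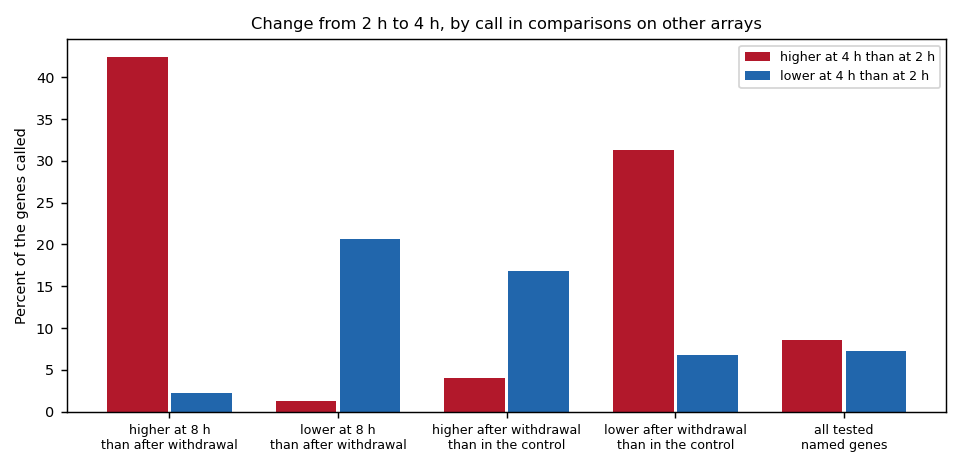
Percent of genes called higher (red) and lower (blue) at 4 h than at 2 h, for genes called in each direction in 8 h of return against withdrawal and in withdrawal against control, and for all 9002 named genes at the right. Those comparisons take their group means from other arrays, but share with 4 h against 2 h the spread estimated over all 15 arrays. Genes higher at 8 h than after withdrawal were higher at 4 h in 42.4% and lower in 2.19%, against 8.52% and 7.22% of all named genes.

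Set along the whole course, the genes called higher at 4 h fell into several shapes. Of the 767, 411 (53.6%) had their highest group mean of log2 intensity at 4 h, 160 at 8 h and 153 in the control, against 17.8%, 12.5% and 19.3% of all named genes; the choice of genes raises the first share. By the same log2 means 9 of the 15 largest rises stood highest at 4 h, one of them, Igsf5, highest at 8 h by its linear mean (44.0 at 4 h and 45.1 at 8 h). Among them was Tcf7l2, with means of 80.6 ± 19 in control cultures and 43.2 ± 12.7 once GDNF was withdrawn, then 37.3 ± 6.51 at 2 h, 247 ± 27.0 at 4 h and 80.6 ± 9.27 at 8 h (SD, 3 arrays each). Adra2a had the same form, with 24.1 ± 1.95 in control cultures, 21.1 ± 1.48 once GDNF was withdrawn, 24.4 ± 1.96 at 2 h, 75.9 ± 6.75 at 4 h and 32.6 ± 5.17 at 8 h. S100a3 and Myh2 were instead highest at 8 h, at 69.7 ± 18.4 and 102 ± 25.1. Fblim1 and Arap3 had 4 h means of 82.6 and 706, between withdrawal means of 27.9 and 189 and control means of 133 and 774. Of the 650 genes lower at 4 h, 290 (44.6%) were highest at 2 h and 274 (42.2%) after withdrawal, against 17.5% and 32.9% of all named genes. Gpcpd1 and Sc5d were of the first kind, with 2 h means of 149 and 402 beside withdrawal means of 83.0 and 201. Clcc1 and Bik were of the second, with withdrawal means of 1165 and 561 beside 2 h means of 871 and 364. These shapes are descriptions, since the 2 h and 4 h arrays both chose the genes and set their peaks.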

How the data were processed

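RNA of 15 cultures was hybridised to single-colour arrays, 3 cultures in each of 5 groups, taken from the sample titles. The deposited intensities are 1 linear value per probe set and sample, from 1.85 to 53476. Per the submitters' processing notes the authors used GCRMA and Partek 6.3, with no role, order or setting given in the sources used here; GCRMA models background from probe base composition, which sets the lowest values. No detection call or scan batch was used, and precision is limited by the number of arrays.

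The log2 of each intensity was used as it stood. Of 31099 probe sets 57 are controls and were not tested, and a probe set was tested at a log2 intensity of at least 4 on 3 of 15 arrays. Symbols came from the platform annotation, updated through a RefSeq table of GRCr8 used for names alone: 20832 probe sets had 1 symbol (20764 matched), 436 several and 9831 none. A gene stands with its tested probe set of highest mean. The test was limma 3.58.1 in R 4.3.3 (lmFit, contrasts.fit, eBayes with intensity trend, two-sided) over all 15 arrays, with Benjamini-Hochberg adjusted p-values and a threshold of 0.05, tested on simulated data first. Tables and figures used Python 3.11.15, pandas 2.3.3 and matplotlib 3.10.9.

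The named genes are the 15 largest rises and falls as defined beside them, all tested immediate early transcription factors, ERK feedback and GDNF-tied genes, Ret, and up to 4 called members of each other list; further called members are named without that rule, after their values were seen, and were not followed singly through the alternatives. The members, lists and rule were chosen with earlier results of these data known. Where called genes of another comparison were followed with an array left out, only the 4 h against 2 h fit changed. Alternatives were other low-value filters and floors, array centring, quantile normalization, array weights, no trend, fewer arrays, blocks and a mesenchymal marker covariate.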

Additional observations from a re-analysis of the deposited data

How the results depend on the processing

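The 4 h arrays exceeded the 2 h arrays in more probe sets than they fell below under every alternative run except quantile normalization, which gave 1128 higher and 1199 lower of 2327, against 1198 and 974 of 2172. The other totals ran from 920 to 2900. With 1 array left out the total was 1489 to 1986, with 848 to 1201 higher and 578 to 785 lower, 58 to 74 up and 15 to 29 down at least 2-fold. The count down at least 2-fold was 10 with a filter at log2 of 5 and 28 with the mesenchymal covariate, and a filter at log2 of 6 left 45 up and 9 down. Without a filter 1625 probe sets were called.

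Same-numbered 4 h and 2 h arrays had correlations of 0.139, -0.138 and 0.053 between their deviations, and 4 h replicate 2 correlated best with 2 h replicate 3. With 3 arrays a group these correlations cannot settle whether the number is a pairing, so the main fit has no block and blocks were run as alternatives. A replicate block over all arrays gave 2317 calls (1288 higher, 1029 lower), and a replicate block over only the 6 arrays gave 920 (588 higher, 332 lower), against 1701 (988 higher, 713 lower) over the same 6 arrays with no block. With the replicate block over only the 6 arrays Fos was called lower (adjusted p = 0.0216), and Srf, Cxcr4, Zyx, Bad, Cdt1, Pola1, Tyms, Bcl2l2, Sox3 and Atoh8 were not called (adjusted p from 0.0528 to 0.171). The counts of genes followed from the other comparisons were then 240 rather than 387, 127 rather than 358, 198 rather than 305 and 77 rather than 208. Over the 6 arrays with no block Plcd4, Tyms and Bcl2l2 were not called (0.053, 0.0525 and 0.0876), and Errfi1 was called higher (0.0332).

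Among named genes Atoh8 had a log2 change of 0.0 with values under 16 set to 16, since both groups lie under that floor. Values under 16 have no firm order, and 3 arrays a group leave changes near the threshold to single arrays.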
